A study of Mus musculus with 4 samples.

Results

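The genes described here are those of the Nodal signalling loop in mouse embryonic stem cells: the ligand Nodal, its secreted antagonists Lefty1 and Lefty2, the co-receptors Tdgf1 and Cfc1, the DNA-binding cofactor Foxh1 and, as a target gene, Fgf15. They were taken by name, as every probe set whose gene symbol in the platform annotation is exactly one of these 7 symbols, which gave 10 of the 45101 probe sets on the array and 7 of the 18193 genes that a probe set names alone. Nodal has 2 probe sets, Foxh1 has 3 and each of the other genes has 1. The cells were E14Tg2A.4, a mouse embryonic stem cell line, so every array comes from the same line. The treated group is 2 arrays of cells that received 25 ng/ml of bone morphogenetic protein 2 (BMP-2) for 1 h, and the control group is 2 arrays of untreated cells. Separate cultures are not named for the arrays of a group, so every p-value below reflects only the scatter among these samples, and that scatter may be technical.

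Nodal is a ligand of the TGF-beta family that binds activin receptors together with an EGF-CFC co-receptor, the proteins encoded by Tdgf1 (Cripto) and Cfc1 (Cryptic). The receptors phosphorylate SMAD2 and SMAD3, which join SMAD4 and the cofactor FOXH1 on DNA, and Lefty genes and Nodal itself are known targets of this complex. The secreted Lefty proteins bind Nodal or its co-receptors and so damp the signal. BMP ligands act through other type I receptors and through SMAD1 and SMAD5, and SMAD4 is among the parts in common.

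Promoter sequences before the annotated start were matched by symbol in RefSeq (GRCm38.p6) for 3 of the 7 genes, Nodal, Tdgf1 and Cfc1, and not for Lefty1, Lefty2, Foxh1 or Fgf15. The 250 bases before the start are shown for the ligand and for the co-receptor that embryonic stem cells are known to express, as the promoters of a ligand and receptor pair. The Nodal sequence is chr10:61417722-61417971, plus strand, and the Tdgf1 sequence is chr9:110946159-110946408, minus strand. Capitals mark CAGAC, a short SMAD-binding motif, on either strand.
Nodal: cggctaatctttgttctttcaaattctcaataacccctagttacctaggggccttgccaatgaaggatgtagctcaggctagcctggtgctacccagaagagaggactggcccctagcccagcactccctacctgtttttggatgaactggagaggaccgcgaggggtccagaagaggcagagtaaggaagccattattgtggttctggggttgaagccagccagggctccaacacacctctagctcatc
Tdgf1: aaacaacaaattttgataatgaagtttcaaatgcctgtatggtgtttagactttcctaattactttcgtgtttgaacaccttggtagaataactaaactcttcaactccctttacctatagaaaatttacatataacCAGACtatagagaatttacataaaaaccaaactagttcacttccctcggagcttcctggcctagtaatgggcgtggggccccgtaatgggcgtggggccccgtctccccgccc

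The motifs searched, on both strands, were AATNCACA for FOXH1, the SMAD palindrome GTCTAGAC, the GC-rich SMAD1/5 element GGCGCC and CAGAC. None of these motifs contains another. The windows of Nodal, Tdgf1 and Cfc1 held 0 matches to the FOXH1, palindrome and GC-rich motifs. CAGAC occurred 1 time before Tdgf1, with its first base at -113 from the start, 1 time before Cfc1, at -110, and 0 times before Nodal. Of 32536 promoter windows of this length, 3.19% held the FOXH1 motif, 0.169% the palindrome, 9.65% the GC-rich element and 42.2% CAGAC. Bases outside these windows, within the gene or further upstream, were not searched. A match describes letters and is not a binding site.

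Median signals were 81.8 and 94.9 on the treated and 82.5 and 94.6 on the untreated arrays, replicate 1 first. They thus differed by replicate number more than by treatment. In all, 27022 probe sets had a mean log2 signal above the 40th percentile, a signal of 53.0, and were tested. All 10 probe sets of the Nodal loop genes were among them. The 6 stem cell markers Pou5f1, Nanog, Sox2, Zfp42, Esrrb and Utf1 all passed this limit, with summed signals of 56797 to 60464 on the treated and 57233 to 60795 on the untreated arrays. Of 6 fibroblast feeder markers, Col1a2 and Thy1 passed and Col1a1, Col3a1, Dcn and Postn did not. The summed feeder signal was 463 to 572 on the treated and 506 to 517 on the untreated arrays. Summed signals take the brightest probe set of every listed gene that has a probe set, tested or not. No marker signal was listed at 0, but no signal on these arrays was, the lowest being 0.038 on untreated replicate 1. This therefore does not show that a marker was present. On untreated replicate 2 the 3 probe sets for 18S ribosomal RNA read 3.94 to 6.11 times the highest of the other arrays. With so few arrays, precision is limited throughout.

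The comparison asked how these genes stood after 1 h of BMP-2. The BMP signal was read in the cells: Id1, Id2 and Id3, helix-loop-helix inhibitors that are known early BMP targets, rose by 1.65, 1.76 and 1.73 log2 (limma adjusted p = 2.0e-05, 3.6e-05 and 3.6e-05, n = 2 per group). Among the Nodal loop genes, Lefty2 and Fgf15 had higher signals on both treated arrays, and 1 of the 2 Nodal probe sets and Lefty1 had lower ones. The other 6 probe sets, of Nodal, Tdgf1, Cfc1 and Foxh1, overlapped between the groups. By limma, 0 of the 10 probe sets passed an adjusted p of 0.05, with 5 of 27022 (0.0185%) over all tested probe sets. At an unadjusted p under 0.05 there were 3 of the 10, against 3.07% of all tested probe sets, and these are Lefty2, Fgf15 and Nodal. The groups did not overlap for 4 of the 10, 2 higher and 2 lower, against 28.4% of all tested probe sets (15.9% higher and 12.5% lower). The median log2 difference was -0.02 over the 10 probe sets and 0.01 over all tested ones. All 5 calls over the array were higher with BMP-2. With each array centred on its median there were 116 calls, 72 higher and 44 lower, and with quantile normalization 5 higher and 1 lower. There were 93 calls without treated replicate 1, 141 without treated replicate 2, 38 without untreated replicate 1 and 16 without untreated replicate 2. In these fits, too, 0 of the 10 passed.

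**Figure D1:**
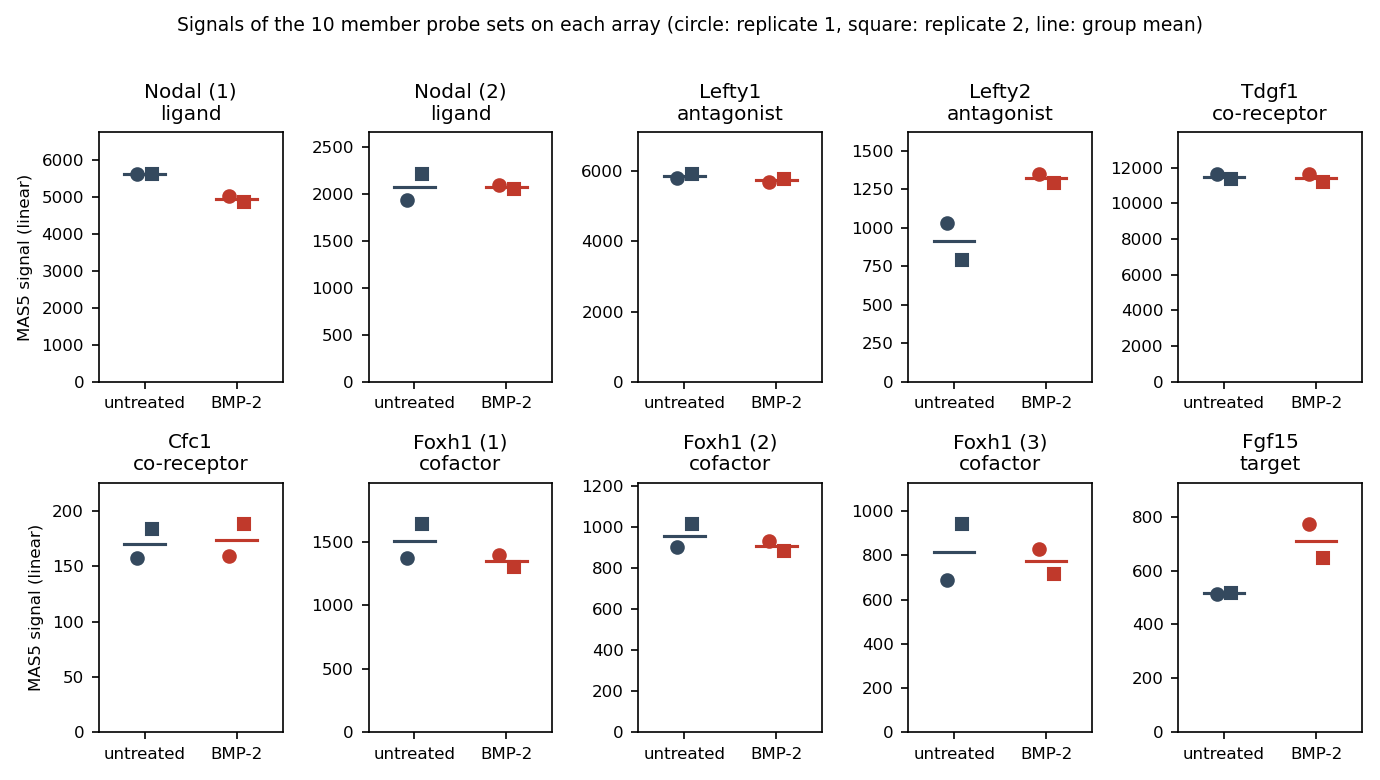
Linear MAS5 signal (vertical axes, starting at 0) of each of the 10 probe sets on the untreated and BMP-2 treated arrays, where circles are replicate 1, squares replicate 2 and lines the group means. Both treated arrays lie above both untreated arrays for Lefty2 and Fgf15 and below them for Nodal (1), which is 1422058_at, and for Lefty1; numbers in brackets order the probe sets of a gene by mean signal.

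The ligand was measured by 2 probe sets that the annotation ties to the same sequence record. For Nodal on 1422058_at the signal was 5030 and 4850 on the treated and 5619 and 5614 on the untreated arrays, replicate 1 first here and below. Both treated arrays were thus below both untreated arrays, and the untreated pair lay close together. The treated mean was 4940 ± 127 (SD, n = 2) and the untreated mean 5616 ± 3.35 (SD, n = 2). The log2 difference was -0.19 with a 95% interval of -0.35 to -0.02, a ratio of 0.879 (0.785 to 0.985), and it did not pass (limma adjusted p = 1.00, unadjusted 0.030). Among all tested probe sets, 519 had a smaller p.

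The other Nodal probe set, 1422057_at, did not show this order. Its signals were 2093 and 2045 on the treated and 1934 and 2211 on the untreated arrays, so that both treated values lay between the untreated ones. The means were 2069 ± 34.5 (SD, n = 2) and 2072 ± 196 (SD, n = 2). The log2 difference was 0.00, with a 95% interval of -0.22 to 0.22 that includes the estimate from the first probe set. The mean of the 2 probe sets gave -0.09 log2. A Nodal transcript level lower by 0.19 log2 therefore rests on 1 of the 2 probe sets.

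The antagonists Lefty1 and Lefty2 are close paralogs that lie near each other on chromosome 1, and each is read by a single probe set. Lefty2, on 1436227_at, read 1349 and 1292 on the treated and 1033 and 789 on the untreated arrays. The treated arrays were close together and above both untreated arrays, which were further apart. The treated mean was 1321 ± 40.3 (SD, n = 2) and the untreated mean 911 ± 172 (SD, n = 2). This is 1.46-fold (95% interval 1.19 to 1.80), or 0.55 log2 with an SE of 0.14, and it did not pass over all tested probe sets (limma adjusted p = 1.00, unadjusted 0.0023). Among all tested probe sets, 51 had a smaller p.

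The size of the Lefty2 difference depended on which untreated array was used. Without untreated replicate 2, the array with the high 18S signal, it was 0.35 log2 (limma adjusted p = 0.910), and without untreated replicate 1 it was 0.74 log2 (adjusted p = 0.0517). Without treated replicate 1 or 2 it was 0.52 or 0.58 log2. Lefty2 was higher with BMP-2 in each of these fits, and the adjusted p over its alternatives ran from 0.0517 to 1.00.

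Lefty1 stayed near its untreated level. On 1417638_at the signal was 5679 and 5772 on the treated and 5784 and 5914 on the untreated arrays. All 4 arrays lay within a narrow band, and the treated arrays were the lower ones by a small margin. The means were 5726 ± 65.8 (SD, n = 2) and 5849 ± 92.0 (SD, n = 2). The log2 difference was -0.03 with a 95% interval of -0.19 to 0.13, a ratio of 0.979 (0.876 to 1.09; limma adjusted p = 1.00). The upper end of this interval lies below the lower end of the Lefty2 interval, 0.25 to 0.85 log2. Neither interval is adjusted for the number of probe sets tested.

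The difference between the 2 antagonists was compared on the arrays themselves. The log2 signal of Lefty2 minus that of Lefty1 was -2.07 and -2.16 on the treated and -2.49 and -2.91 on the untreated arrays. It was higher on both treated arrays, by 0.58 log2 on average. An exact two-sided permutation test over the 4 arrays gave p = 0.33, which is the smallest p that 2 arrays against 2 can give, so this test could not pass. Without untreated replicate 2 the difference was 0.37 log2 and without untreated replicate 1 it was 0.79 log2. The part of cross-hybridisation between transcripts of these paralogs was not tested.

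**Figure D2:**
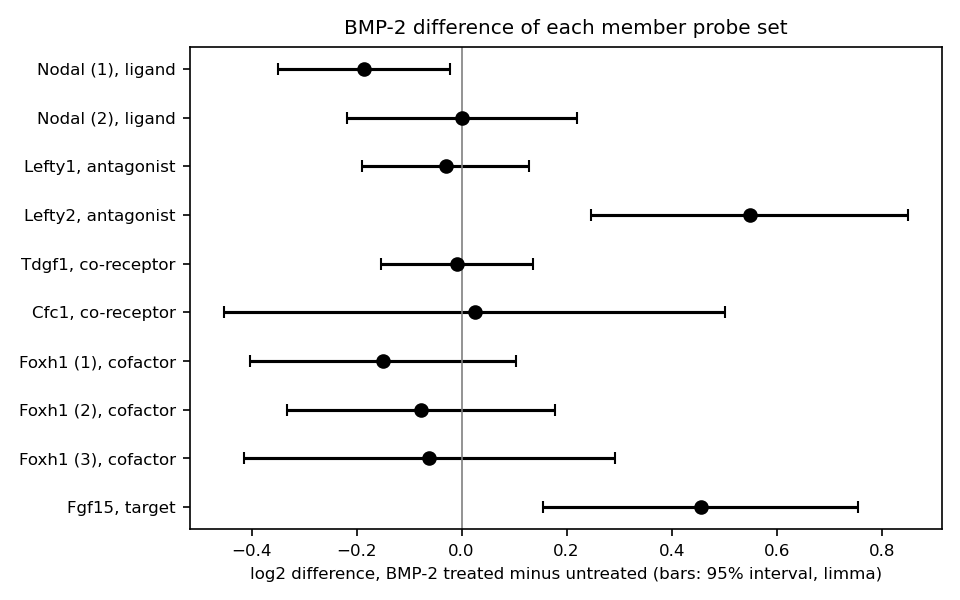
Log2 difference in signal, BMP-2 treated minus untreated (horizontal axis), of each of the 10 probe sets, with 95% intervals from limma as bars. The intervals of Lefty2 and Fgf15 lie above 0 and that of 1 Nodal probe set, 1422058_at, below it, while the others include 0; none passed after adjustment over all tested probe sets.

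The co-receptor genes gave 1 tight and 1 wide estimate. Tdgf1, which encodes the membrane-anchored EGF-CFC protein Cripto, read 11650 and 11211 on the treated and 11612 and 11375 on the untreated arrays (1450989_at). The groups overlapped, with replicate 1 the higher array in each. The means were 11431 ± 310.2 (SD, n = 2) and 11493 ± 168 (SD, n = 2). The log2 difference was -0.01, and its 95% interval of -0.15 to 0.14, a ratio of 0.899 to 1.10, was the narrowest among the 10 probe sets.

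Cfc1 encodes Cryptic, the other EGF-CFC co-receptor, known for its part in left-right patterning. Its probe set 1421524_at read 159 and 188 on the treated and 157 and 183 on the untreated arrays. Replicate 2 was the higher array in each group by about the same amount, and the group ranges overlapped almost fully. The means were 173 ± 20.4 (SD, n = 2) and 170 ± 18.6 (SD, n = 2). The log2 difference was 0.02 with a 95% interval of -0.45 to 0.50, a ratio of 0.731 to 1.42. At this signal a difference of the size seen for Lefty2 lies just outside the interval, and differences inside the interval could not be told from 0.

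Foxh1 encodes the forkhead protein that brings SMAD2 and SMAD3 to Nodal target genes, and its 3 probe sets gave the same order of arrays at the top. On 1422213_s_at the signal was 1398 and 1304 on the treated and 1372 and 1637 on the untreated arrays. On 1437779_at it was 930 and 884 against 903 and 1012. On 1422212_at it was 830 and 716 against 688 and 940. Untreated replicate 2 was the highest array on each of the 3 probe sets, and the groups overlapped on each.

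The log2 differences of Foxh1 were -0.15 (95% interval -0.40 to 0.10), -0.08 (-0.33 to 0.18) and -0.06 (-0.41 to 0.29) in the same order, and none passed (limma adjusted p = 1.00 for each). Without untreated replicate 2 they were -0.02, 0.0059 and 0.16 log2, so the lower Foxh1 signal with BMP-2 rests on that array. Without untreated replicate 1 they were -0.28, -0.16 and -0.29 log2. Without treated replicate 1 they were -0.20, -0.11 and -0.17, and without treated replicate 2 they were -0.10, -0.04 and 0.05 log2. The mean of the 3 probe sets gave -0.10 log2. The suffix of 1422213_s_at marks a probe set whose probes can match more than one transcript.

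Fgf15 encodes a secreted fibroblast growth factor. Its probe set 1418376_at read 771 and 647 on the treated and 512 and 518 on the untreated arrays. Both treated arrays were above both untreated arrays, and here the treated pair was the one further apart. The treated mean was 709 ± 87.7 (SD, n = 2) and the untreated mean 515 ± 4.70 (SD, n = 2). This is 1.37-fold (95% interval 1.11 to 1.69), or 0.46 log2 with an SE of 0.13, and it did not pass (limma adjusted p = 1.00, unadjusted 0.0070). Among all tested probe sets, 113 had a smaller p. Leaving out 1 array gave 0.33 to 0.58 log2, the lowest without treated replicate 1.

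**Figure D3:**
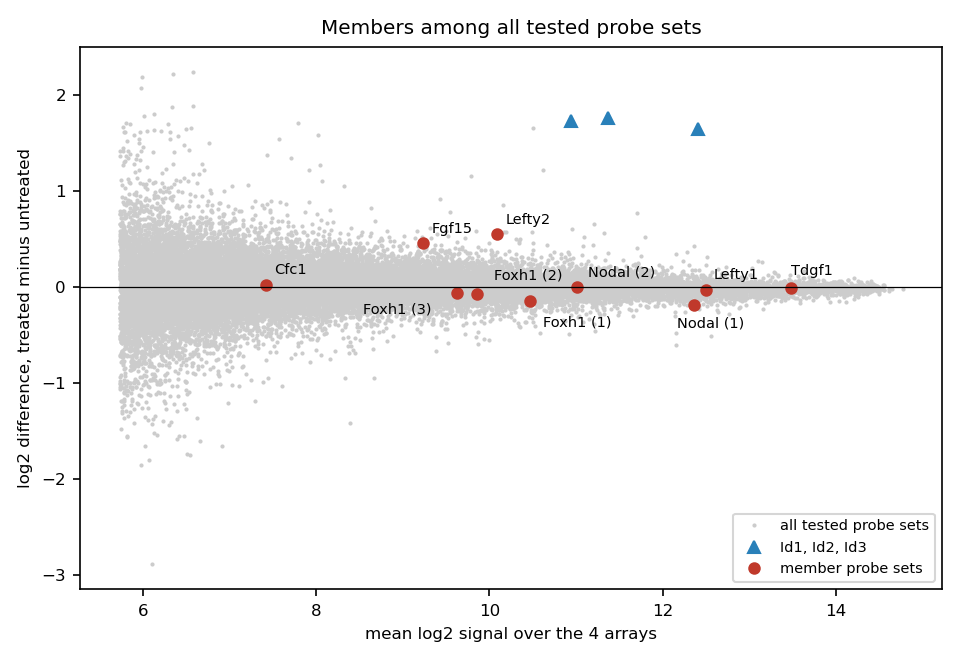
Log2 difference, BMP-2 treated minus untreated (vertical axis), against the mean log2 signal over the 4 arrays (horizontal axis), for all 27022 tested probe sets (grey), the 10 probe sets of the Nodal loop genes (red circles) and Id1, Id2 and Id3 (blue triangles). Lefty2 and Fgf15 lie at the upper edge of the grey cloud at 0.55 and 0.46 log2, below the Id genes at 1.65 to 1.76 log2, and the other 8 lie between -0.19 and 0.02 log2.

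Other genes of the Nodal and activin pathway were followed as a list of 27, of which 21 were tested. No probe set carried the symbol Gdf1 alone, and Inhba, Acvr1c, Cer1, Dand5 and Gsc had only probe sets under the signal limit. Of the 21, Dact2 had a treated mean under the signal limit and passed through its higher untreated mean. The counts that follow are over the other 20. Of these 15 were higher and 5 lower with BMP-2 (53.0% of all genes were higher), and 0 passed in either direction by limma, against 0.0308% of 12976 genes each read by its brightest probe set. At an unadjusted p under 0.05 there were 3 (Smad7, Skil and Ski), against 3.21% of all genes. The groups did not overlap for 11 of the 20, 9 higher and 2 lower, against 28.8% of all genes (16.4% higher and 12.4% lower). The median log2 difference was 0.08, against 0.01 over all genes. The list holds Smad7 and Skil, which are also known BMP targets, and it was written with earlier results known.

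Among ligands, Gdf3, a TGF-beta family member that uses the same type of co-receptor as Nodal, differed by -0.09 log2 (95% interval -0.27 to 0.10), and by -0.13 and -0.04 log2 without treated replicate 1 and 2. Of the 3 tested ligands 1 was higher and 2 were lower on their brightest probe sets. The 2 lower ones, Gdf3 and Inhbb, took the opposite sign on dimmer probe sets with overlapping groups. These were 0.02 log2 on 1460057_at for Gdf3 and 0.42 log2 (-0.16 to 1.01) on 1426859_at for Inhbb. Tgfb1 kept its sign on its dimmer probe set, 1445360_at (0.27 log2, -0.71 to 1.26). The proprotein convertases that cleave the Nodal precursor, Furin and Pcsk6, were both higher on both treated arrays, as were 16.4% of all genes. Furin read 272 and 223 on the treated and 208 and 171 on the untreated arrays, 0.39 log2 (-0.06 to 0.84, limma adjusted p = 1.00). Its difference was 0.24 log2 without treated replicate 1. Pcsk6 differed by 0.10 log2 (-0.19 to 0.39), and by 0.06 log2 without treated replicate 2.

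On their brightest probe sets the 3 tested receptors, Acvr1b, Acvr2a and Acvr2b, had overlapping groups. There Acvr2a differed by -0.10 log2 (95% interval -0.47 to 0.28). A dimmer Acvr2a probe set, 1451004_at, read 175 and 165 on the treated and 153 and 71.8 on the untreated arrays, 0.70 log2 (95% interval -0.05 to 1.44, limma adjusted p = 1.00). Acvr1b, the type I activin receptor, differed by 0.13 log2 (95% interval -0.19 to 0.46) and Acvr2b, a type II receptor, by 0.01 log2 (-0.24 to 0.27). Acvr1b was 0.03 log2 without untreated replicate 2, and Acvr2b took the opposite sign, -0.12 log2, without untreated replicate 1. Among the SMADs, Smad3 differed by 0.13 log2 (-0.18 to 0.44) and Smad4 by 0.06 log2 (-0.13 to 0.25). Smad3 was 0.04 log2 without untreated replicate 1, and Smad4 was -0.0023 log2 without untreated replicate 2. Dimmer probe sets gave other values. Smad3 on 1450472_s_at read 54.7 and 63.3 on the treated and 97.9 and 89.7 on the untreated arrays. The treated signals lay near the signal limit of 53.0, and the suffix marks probes that can match several transcripts. This probe set was lower on both treated arrays, at -0.67 log2 (-1.39 to 0.05). Smad2 on 1442062_at was higher on both, at 0.42 log2 (0.04 to 0.79, limma adjusted p = 1.00 for each of these probe sets). On its brightest probe set Smad2 differed by -0.04 log2. The antagonist Dact2, an intracellular inhibitor of Nodal receptors, read 63.8 and 36.7 on the treated and 109 and 82.3 on the untreated arrays. Its treated mean of 50.3 lay below the signal limit of the tested probe sets, so no size is given for its difference, which did not pass (limma adjusted p = 1.00). The other tested antagonist, Fst, which encodes the activin-binding protein follistatin, differed by 0.06 log2 (-0.49 to 0.62).

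On their brightest probe sets the 4 transcriptional regulators had groups that did not overlap. Of these 3 were higher and 1 lower, against 16.4% and 12.4% of all genes. Trim33 was among the higher ones, by 0.05 log2 (95% interval -0.15 to 0.24). Its groups overlapped on a dimmer probe set, 1455189_at (0.02 log2), while dimmer probe sets of Ski and Skil were higher on both treated arrays. Skil, a co-repressor of SMADs, read 6229 and 5978 on the treated and 4830 and 4275 on the untreated arrays. It lay 0.43 log2 higher (95% interval 0.24 to 0.61, limma adjusted p = 0.469, and 0.0261 to 1.00 over its alternatives), and it passed without treated replicate 2. All 4 tested target genes were higher on their brightest probe sets, as were 53.0% of all genes. Mixl1 overlapped between the groups, and so did Eomes on a dimmer probe set, 1426001_at (0.12 log2, -0.56 to 0.80). A dimmer Pmepa1 probe set, 1422706_at, was higher on both treated arrays (0.33 log2, -0.08 to 0.74). Smad7, an inhibitory SMAD, read 2956 and 2984 on the treated and 1970 and 1803 on the untreated arrays. It lay 0.66 log2 higher (0.46 to 0.86, limma adjusted p = 0.0635, and 0.0021 to 1.00 over its alternatives). It passed with the replicate block (adjusted p = 0.0372), without treated replicate 1 (0.0021), without treated replicate 2 (0.0033) and without untreated replicate 1 (0.0241). A second Smad7 probe set, 1443771_x_at, had treated and untreated groups that overlapped, with means of 929 ± 589.7 and 818 ± 478 (SD, n = 2).

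**Figure D4:**
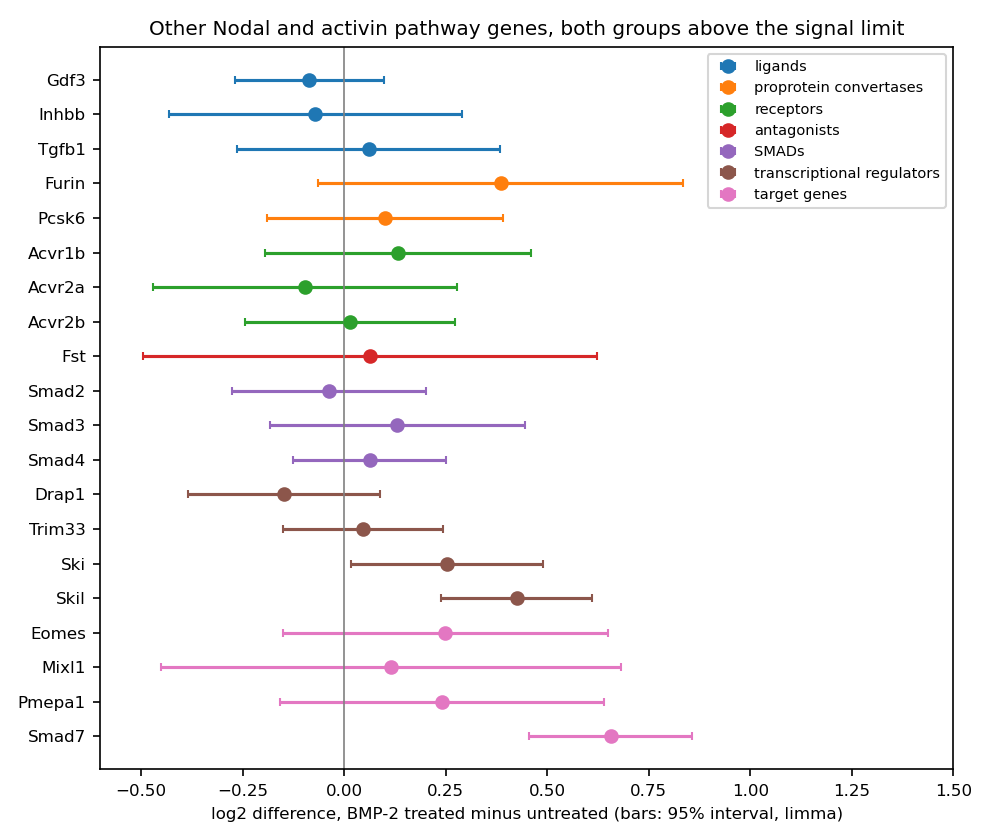
Log2 difference, BMP-2 treated minus untreated (horizontal axis), of the 20 tested genes of the Nodal and activin pathway list whose group means both lay above the signal limit, each on its brightest probe set, coloured by role, with 95% intervals from limma as bars. Smad7 at 0.66 and Skil at 0.43 log2 lie highest, Drap1 at -0.15 log2 lies lowest, and 0 of the 20 passed after adjustment over all tested probe sets.

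Markers of cells that respond to Nodal in the embryo were also read. Of the primitive streak and mesoderm markers, Mixl1, Eomes and Mesp1 passed the signal limit, Gsc did not, and T matched no probe set by symbol. All 3 tested ones were higher with BMP-2, as were 53.0% of all genes, and none passed by limma. Mixl1 overlapped between the groups and was -0.14 log2 without treated replicate 2. The summed signal of the list, with Gsc included, was 507 to 557 on the treated and 423 to 440 on the untreated arrays. Its largest part was Eomes on its brightest probe set, at 237 and 251 on the treated and 213 and 198 on the untreated arrays. Of 6 primitive and visceral endoderm markers, Gata4, Gata6, Sox17 and Foxa2 passed the limit and Afp and Ttr did not. All 4 had a higher mean with BMP-2, but each overlapped between the groups and none passed, and the summed signals of 404 to 571 on the treated and 333 to 451 on the untreated arrays overlapped. The part of these cells in the Lefty2 and Fgf15 differences was not tested. In RNA from a whole culture, more cells of a type and more RNA per cell cannot be told apart.

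**Figure D5:**
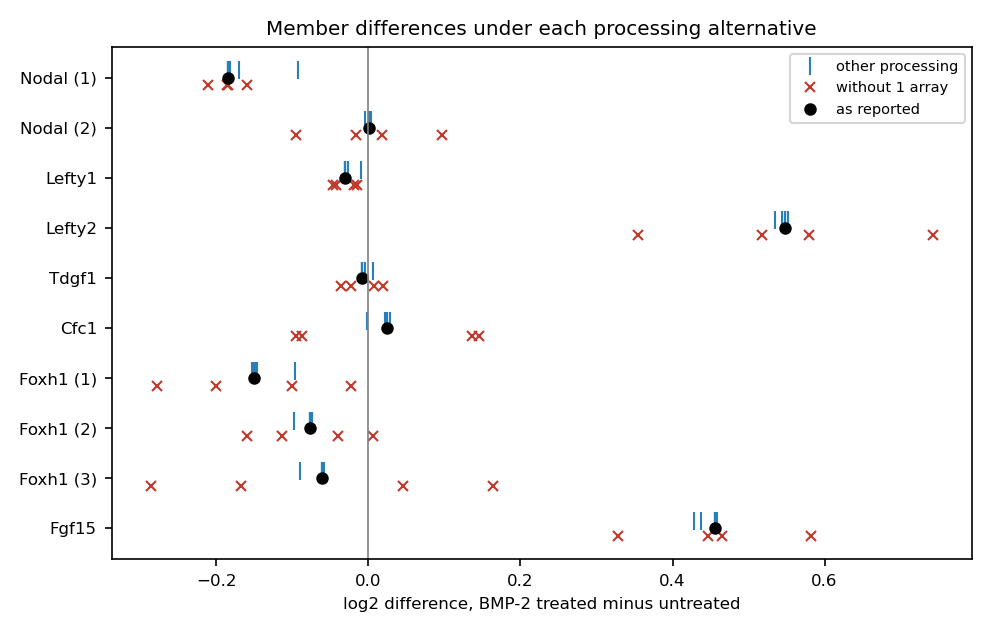
Log2 difference, BMP-2 treated minus untreated (horizontal axis), of each of the 10 probe sets as reported (black circles), under other processing (blue bars) and without 1 array (red crosses). Lefty2 (0.35 to 0.74 log2) and Fgf15 (0.33 to 0.58 log2) stay above 0 in every setting shown. Nodal (1), 1422058_at, Lefty1 (-0.05 to -0.01 log2) and Foxh1 (1), 1422213_s_at (-0.28 to -0.02 log2), stay below 0 in every setting shown. Nodal (2), Tdgf1, Cfc1 and 2 of the 3 Foxh1 probe sets fall on both sides of 0.

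For Lefty2 and Fgf15 the choice of arrays moved the difference more than the choice of normalization. For Lefty2, quantile normalization, median centring and the pseudocount gave 0.54 to 0.55 log2, while leaving out an array gave 0.35 to 0.74 log2. For Fgf15 the corresponding values were 0.43 to 0.46 and 0.33 to 0.58 log2.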

How the data were processed

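RNA of 4 cultured cell samples was read on one-colour Affymetrix arrays. Each deposited value is the intensity signal of a probe set on a linear scale, which the authors computed with MAS5, per the submitters' processing notes (no version is named). The 2%-trimmed mean was 500.003 on each array, so a scaling within arrays had been applied. Detection calls were not used here.

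Log2 signals were used without a pseudocount. Array medians lay within 0.21 log2, under a limit of 0.3, so no normalization was added. After 64 control probe sets were left out, probe sets above the 40th percentile of mean log2 signal were kept. Groups, taken from the sample titles, were compared in R 4.3.3 with limma 3.58.1 (lmFit, then eBayes with intensity trend, 2 residual and 7.98 prior degrees of freedom), two-sided, with p-values adjusted by Benjamini-Hochberg across the 27022 kept probe sets and 95% intervals. The code was tested on simulated data. Probe sets were named from the platform annotation, and 0 member symbols changed through Entrez identifiers (GRCm38.p6). A pathway gene was read by its brightest kept probe set. Per role, the gene with the smallest p and the brightest one were named. Ski, Trim33, dimmer probe sets and genes listed as not tested were named after their values were seen. The members and lists were chosen with earlier results of these data known. A further gene planned for the pathway list is not reported here.

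Alternatives were quantile normalization, median centring over all probe sets other than controls, a pseudocount of 25.4, no filter, a 60th percentile filter, an adjusted p of 0.1, a replicate block, fits without 1 array, no intensity trend, and averaging the probe sets of a gene.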

Additional observations from a re-analysis of the deposited data

How the results depend on the processing

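In all 12 alternatives 0 of the 10 probe sets passed by limma, with 1 to 3 of them at an unadjusted p under 0.05. The count of calls over the array, 5 as reported, was 116 with median centring, 8 with the stricter filter, 0 without the intensity trend (1023 at an unadjusted p under 0.05) and 11 at an adjusted p of 0.1. Leaving out an array gave 16 to 141 calls. The replicate block gave 11 calls, 10 higher and 1 lower. Deviations of equally numbered arrays correlated at 0.15, and with 2 pairs the labels do not show that the numbers pair the samples. Under the block Lefty2 had an adjusted p of 0.314, and the block changed the call of Smad7 but of none of the 10 probe sets.

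With quantile normalization the log2 differences of Nodal on 1422057_at, Tdgf1 and Cfc1 took the opposite sign, at -0.0045, 0.0061 and -0.0018. With 1 array left out they ran from -0.10 to 0.10, -0.036 to 0.020 and -0.10 to 0.15, and for Foxh1 from -0.16 to 0.0059 on 1437779_at and -0.29 to 0.16 on 1422212_at. Of the 21 pathway genes, 7 changed sign in some fit without 1 array: Inhbb (-0.15 to 0.0042), Tgfb1 (-0.0032 to 0.12), Acvr2b (-0.12 to 0.15), Fst (-0.28 to 0.40), Smad2 (-0.087 to 0.012), Smad4 (-0.0023 to 0.13) and Mixl1 (-0.14 to 0.37). The Lefty2 minus Lefty1 difference ran from 0.37 to 0.79 log2 in these fits. A fit without 1 array leaves a lone array in its group, which is assumed to vary like the others. Dim signals limit Cfc1, Dact2 and the untested genes.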
